A study of Mus musculus with 1 sample.

Results

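Annexins and their S100 partners are calcium-linked membrane-binding proteins, and 10 of their genes (Anxa1, Anxa2, Anxa5, Anxa6, Anxa11, S100a4, S100a6, S100a10, S100a11 and S100a13) were followed in 1 sample of cultured mouse lung cancer cells. Members were taken from this named list, and every probe set that the platform annotation assigns to exactly 1 gene was used. Of the 10 genes, 8 had such a probe set. Together they had 16 of the 34945 one-gene probe sets, and they were 8 of the 18193 genes measured on the array. Anxa11 and S100a11 were each listed only on a probe set shared with other genes and so have no value of their own here. The list was drawn up with earlier results of these data known, so the members' own levels are descriptions and support nothing by themselves.

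The sample was a cell line grown from a KR tumor, labelled KR Primary, of strain B6/J. The labels do not spell out KR, and the series title speaks of kras tumor-derived cell lines. No genotype, passage number, clone or treatment is given in the labels used here. Cells were grown in RPMI1640 with 10% serum, collected at 80% to 90% confluency, and 150 ng of total RNA was labelled with biotin for an Affymetrix array. With 1 sample in 1 group there was no control, no replicate error and no test between conditions.

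Annexins bind acidic phospholipids when calcium rises, through a core of repeated domains, and carry an N-terminal tail that differs between members. S100 proteins are small EF-hand proteins that work mostly as dimers and dock onto target proteins. S100A10 has lost calcium binding and holds annexin A2 in a stable complex that sits under the plasma membrane and can gather plasminogen at the cell surface, and S100A11 binds annexin A1. In epithelial cells these proteins are known for membrane traffic, membrane repair and links to the actin cortex.

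Signals are in arbitrary fluorescence units on a linear scale. Probe sets differ in brightness for the same amount of RNA, so genes were called against a background set on the same array. Percentiles and medians over other genes describe signals and do not compare amounts of RNA. The background came from 126 probe sets of smell, taste and hair follicle genes. Their 95th percentile, 16.8, is called the background threshold here, and their highest signal, 60.6, the background maximum, which rests on 1 probe set. A gene was called above the threshold on the strength of its brightest probe set. By this rule 63.3% of all measured genes were above the threshold and 47.5% above the background maximum. Fewer cells with a transcript and less transcript per cell cannot be told apart in such bulk RNA.

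All 8 measured members were above the background threshold, and 7 of them, all but S100a4, were above the background maximum. Both counts stand beside the 63.3% and 47.5% of all genes and carry no test. The median of the members' highest signals was 4845, against 48.3 over all measured genes. Over every member probe set the median was 154.5, against 32.1 over all one-gene probe sets. Of the 16 member probe sets 15 passed the threshold, where 60.9% of all one-gene probe sets did. The number of probe sets matters for such counts. The line was passed by 48.4% of genes with 1 probe set, 72.4% with 2, 82.3% with 3 and 87.5% with 4, and the members had 1 probe set in 4 cases, 2 in 1 case, 3 in 2 cases and 4 in 1 case.

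**Figure D1:**
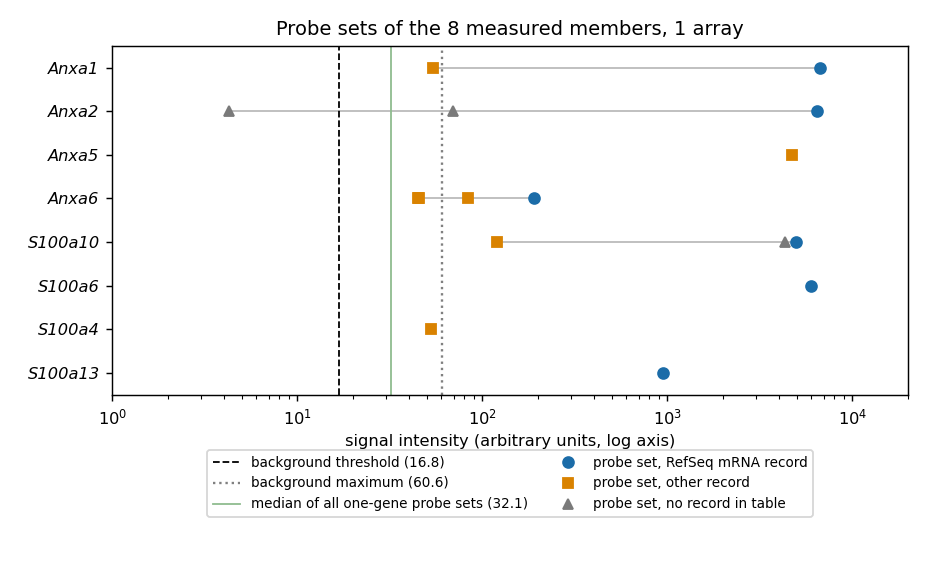
Signal of each probe set of the 8 measured members (horizontal log axis, arbitrary units; 1 row per gene, 1 array, no error bars), with marker shape showing the kind of sequence record the annotation gives for the probe set. The brightest probe sets of Anxa1, Anxa2, Anxa5, S100a6 and S100a10 lie between 4707 and 6678, whereas S100a4 lies at 52.9, under the background maximum of 60.6, and 1 Anxa2 probe set lies below the background threshold of 16.8.

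Among the annexins, Anxa1 encodes annexin A1, which is released from cells as a ligand of formyl peptide receptors and was first described as an inhibitor of phospholipase A2. Its probe set 1448213_at read 6678 and its probe set 1444016_at read 54.0. The former stood at the 99.9th percentile of one-gene probe sets, and the latter was above the threshold but under the background maximum.

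Anxa2 encodes annexin A2, the partner of S100A10. Its 3 probe sets read 6411 for 1419091_a_at, 69.7 for 1437692_x_at and 4.25 for 1437691_at. They lay far above the background maximum, just above it, and below the background threshold. The gene was therefore called on 2 of its 3 probe sets, and its median signal, 69.7, was close to the background maximum.

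Anxa5 encodes annexin A5, known for binding phosphatidylserine on the surface of dying cells. Its only probe set, 1425567_a_at, read 4707, which was 280.1 times the background threshold. Anxa6 encodes annexin A6, an annexin with a longer core that takes part in endosome traffic and cholesterol handling. Its 4 probe sets read 189, 84.2, 45.6 and 45.1, so that all passed the threshold and 2 passed the background maximum. The highest of them stood at the 75.1st percentile of one-gene probe sets. All of its probe sets were thus called, each at a modest distance from the threshold.

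Among the S100 genes, S100a10 encodes the calcium-insensitive partner of annexin A2. Its 3 probe sets read 4984 for 1416762_at, 4308 for 1456642_x_at and 119.6 for 1439348_at. All 3 were above the background maximum, and the brighter pair were close to each other. Names ending in _x_at mark probe sets that can take signal from related sequences, which holds for 1 probe set each of S100a10 and Anxa2. Both partners of the annexin A2 and S100A10 complex thus had a probe set at or above the 99.6th percentile.

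S100a6 encodes S100A6, or calcyclin, which is found in growing cells and binds several annexins and the calcyclin-binding protein. Its only probe set, 1421375_a_at, read 5989 and stood at the 99.8th percentile. S100a13 encodes a protein that helps export growth factor and cytokine proteins lacking a signal peptide. Its only probe set, 1418704_at, read 944, at the 93.7th percentile.

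S100a4 encodes S100A4, which binds nonmuscle myosin and is also known as fibroblast-specific protein. Its only probe set, 1424542_at, read 52.9. This was 3.15 times the background threshold and under the background maximum, at the 57.1st percentile of one-gene probe sets. S100a4 was the only measured member that did not pass the background maximum, and this call rests on 1 background probe set. That probe set, for the keratin-associated gene Krtap12-1, read 60.6, whereas the next highest, for Krtap10-4, read 42.2. Without keratin-associated genes in the background set its maximum was 19.2, and S100a4 was above it.

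The spread between probe sets of a gene was the only spread the array itself gave, and it is not a replicate error. Of the 4 members with several probe sets, the SD on the log2 scale was 4.91 for Anxa1, 3.05 for S100a10 and 0.98 for Anxa6. For Anxa2 it was 4.48 with its probe set under the threshold set to the threshold, since such a signal is only a bound. With signals under the threshold treated in this way in every gene, the Anxa2 probe sets were at least 8.58 apart on the log2 scale, and those of Anxa1 6.95, S100a10 5.38 and Anxa6 2.07. The median of this range was 1.46 over all 9010 genes that had several probe sets. The range was narrower than that of Anxa2 in 99.9% of these genes, and narrower than those of Anxa1, S100a10 and Anxa6 in 98.7%, 93.6% and 58.8%. This setting gives a range of 0 to genes with every probe set under the threshold, such as S100b, which raises the members' ranks. With signals as deposited the median range was 2.54. The shares were then 99.6% for Anxa2, 94.3% for Anxa1, 86.2% for S100a10 and 41.7% for Anxa6. Probe brightness, transcript variants and noise cannot be told apart in this spread.

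The annexins that were not members were also mostly bright. Of 7 measured, 6 passed both the threshold and the background maximum, where 63.3% and 47.5% of all measured genes did. The median of the highest signals of these 7 annexins was 1083. Anxa3, an annexin of phagocytic and epithelial cells, read 5937 on its only probe set. Anxa4, an annexin of epithelial cells, read 4204, 3301 and 1138 on its 3 probe sets. Anxa7, an annexin of secretory vesicle fusion, read 2496, 275 and 127.

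Anxa8 read 1083 and 767, and Anxa10, an annexin known from gastric epithelium, read 1051 and 67.6. Anxa9, which has lost calcium-binding residues, read 151 on its only probe set. The exception was Anxa13, an annexin of gut and kidney epithelium, at 15.9, just under the threshold. In the annexin family as a whole, 10 of 11 measured genes were above the background maximum, where 47.5% of all measured genes were. The members are among these 11, and the other 6 called genes were not chosen by the list.

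**Figure D2:**
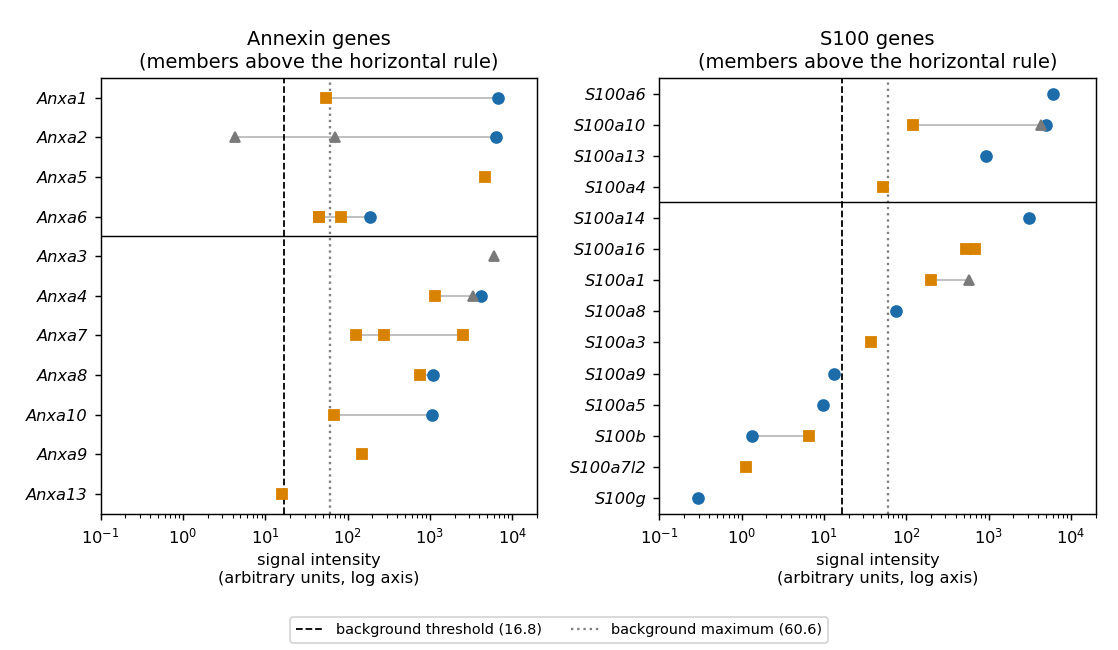
Signal of every one-gene probe set of the annexin genes (left) and S100 genes (right) on log axes in arbitrary units, with members above the horizontal rule and marker shapes for the kind of sequence record (circle, RefSeq mRNA; square, other record; triangle, none). All annexin genes but Anxa13 at 15.9 reach beyond the background maximum, whereas the S100 genes outside the member list run from 0.295 for S100g to 3144 for S100a14.

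The other S100 genes were divided. Of 10 measured, 5 passed the threshold and 4 the background maximum, where 63.3% and 47.5% of all measured genes did. The median of their highest signals was 25.5. S100a14, an S100 gene of epithelia, read 3144 on its only probe set. S100a16 read 680.3 and 528, and S100a1, best known from heart muscle, read 581 and 199.

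S100a8 encodes a subunit of calprotectin, the main S100 protein of neutrophils, and read 75.8, slightly above the background maximum. Its partner subunit gene S100a9 read 13.4 and was not above the threshold. S100a3, known from hair cuticle, read 37.5, between threshold and maximum. S100a5 at 9.88, S100b, the glial S100 gene, at 6.55 and 1.33, S100a7l2 at 1.12 and S100g, the calbindin of calcium-absorbing gut cells, at 0.295 were not above the threshold. S100a7a and S100z had no one-gene probe set. Across the family, 9 of 14 measured S100 genes (64.3%) passed the threshold and 7 (50%) the background maximum, shares close to the 63.3% and 47.5% of all measured genes.

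Most S100 genes lie side by side in the genome. In the RefSeq gene table of assembly GRCm38.p6, 14 of the 17 S100 genes listed here were on the same chromosome. From S100a1 to S100a9 they were direct neighbours among coding genes. S100a11 and S100a10 were neighbours of each other, 54 coding genes beyond S100a7l2. Genes above and below the threshold stood side by side along this order.

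S100a13 at 944 lay between S100a1 and S100a14, whose highest signals were 581 and 3144. S100a4 at 52.9 and S100a6 at 5989 lay on either side of S100a5 at 9.88. The next measured gene after S100a6, S100a8, read 75.8. Both neighbours of S100a5, which was under the threshold, were thus above it, S100a4 by a small and S100a6 by a wide margin.

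The 150 bases before the annotated start are shown for S100a4 and S100a6, since these near neighbours stood furthest apart against the background among the member S100 genes, and for Anxa1 and Anxa2, the brightest members. They come from the RefSeq promoter table of build GRCm38.p6, which held 8 of the 10 members. S100a10 and Anxa6 were not in it. Sequences run 5′ to 3′ on the gene's strand and end at the base before the start, and no other gene of the RefSeq table overlapped them. Capitals mark TATAAA (the TATA box, searched on the gene's strand), TGANTCA (the AP-1 site, with N for any base) and GGGCGG (the GC box), the latter both searched on both strands. The motifs found did not overlap each other. The S100a4 stretch is at chr3:90603620-90603769 on the plus strand, that of S100a6 at chr3:90612744-90612893 on the plus strand, that of Anxa1 at chr19:20390672-20390821 on the minus strand, and that of Anxa2 at chr9:69453533-69453682 on the plus strand.
S100a4: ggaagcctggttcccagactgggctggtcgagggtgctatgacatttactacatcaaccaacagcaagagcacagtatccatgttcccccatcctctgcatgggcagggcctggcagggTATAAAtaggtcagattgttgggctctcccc
S100a6: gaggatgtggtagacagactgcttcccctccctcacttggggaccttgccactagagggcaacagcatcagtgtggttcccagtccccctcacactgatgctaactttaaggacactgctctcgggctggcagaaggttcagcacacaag
Anxa1: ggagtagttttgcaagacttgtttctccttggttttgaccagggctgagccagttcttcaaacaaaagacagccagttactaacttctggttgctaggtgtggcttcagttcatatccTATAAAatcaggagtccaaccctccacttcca
Anxa2: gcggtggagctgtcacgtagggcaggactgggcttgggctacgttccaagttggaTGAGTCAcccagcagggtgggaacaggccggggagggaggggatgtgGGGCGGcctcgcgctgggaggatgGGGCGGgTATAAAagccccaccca

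The TATAAA letters began 31 bases before the start in S100a4, 32 in Anxa1 and 17 in Anxa2, and were not in the window of S100a6. Over the full 250 bases before the start, they were present in 7.59% of the 32851 promoters in the table. TGANTCA was present in Anxa2 once, against 6.75% of all promoters, and GGGCGG 3 times, of which 2 lie in the stretch shown, against at least once in 32.7%. Neither was in the S100a4, S100a6 or Anxa1 window. CpG dinucleotides numbered 9 in Anxa2, 2 in Anxa1, 3 in S100a6 and 2 in S100a4, against a median of 6 over all promoters. S100a4 and Anxa1 both had the TATAAA letters and 2 CpG dinucleotides. Any link between these letters and the signals was not tested. A match is a description of the letters and not a sign of binding.

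Genes that work with these proteins were read next, from lists in which 40 of 48 genes had a one-gene probe set. Of the 40, 32 (80.0%) passed the threshold and 28 the background maximum, where 63.3% and 47.5% of all measured genes did. The median of their highest signals was 542. The lists differed among themselves.

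The annexin A2 and S100A10 complex helps to assemble the plasminogen system at the cell surface. Of 6 measured plasminogen system genes, 5 passed the threshold and 4 the background maximum, where 63.3% and 47.5% of all measured genes did. Serpinb2, an inhibitor of plasminogen activators, read 2000.2. Plat, the tissue plasminogen activator gene, had a probe set at 1969.9 and another at 39.9, and Plaur, the urokinase receptor gene, read 1768. Plgrkt, a plasminogen receptor gene, read 519. Plau, the urokinase gene itself, read 29.2 and 28.4, between threshold and maximum, and Plg, the plasminogen gene of liver, read 4.85 and was not above the threshold.

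Of 7 measured genes for direct partners of annexin A2 and S100A10, 4 passed the threshold and 2 the background maximum. These shares, 57.1% and 28.6%, were below the 63.3% and 47.5% of all measured genes. Ahnak, a giant scaffold protein gene, read 4048 on its highest of 4 probe sets, but only 2 of these passed the threshold and their median was 39.4. Src, a kinase gene whose product phosphorylates annexin A2, read 122 and 112. The RhoGAP gene Dlc1, at 38.9 on its highest probe set, and the membrane repair gene Dysf at 27.6 lay between threshold and maximum. Of the 4 probe sets of Dlc1, 2 passed the threshold. The channel genes Kcnk3, Scn10a and Trpv6, whose products S100A10 can bring to the cell surface, all lay under the threshold, the latter pair at 2.73 and 1.19.

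For annexin A1, the phospholipase A2 gene Pla2g4a read 971. The formyl peptide receptor gene Fpr2 read 10.1 and was not above the threshold, while Fpr1 and Fpr3 had no one-gene probe set. Ligand and measured receptor thus fell on opposite sides of the threshold in these cells, Anxa1 above and Fpr2 below.

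Of 8 genes for targets and a receptor of S100 proteins, 7 passed the threshold and 6 the background maximum. The shares over all measured genes were 63.3% and 47.5%. These 8 genes had 21 probe sets, and 15 of them (71.4%) passed the threshold, against 60.9% of all one-gene probe sets. Myh9, the nonmuscle myosin heavy chain gene whose product binds S100A4, read 3652 on the highest of 5 probe sets, all of which passed the threshold. Sugt1 and Cacybp, whose products bind S100A6, read 1833 and 1297, the former with a second probe set at 70.8. Ppfibp1, another S100A4 target gene, read 485 on its highest probe set.

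The proteins that leave cells with the help of S100A13 were represented by Il1a at 226 and Fgf1 at 78.9, both above the background maximum. Syt1, a synaptic calcium sensor gene of the same export complex, reached 33.7 on 1 of 4 probe sets above the threshold. Ager, the cell surface receptor of several S100 proteins, read at most 12.4 on its pair of probe sets, under the threshold.

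Membrane repair genes passed the threshold in 10 of 11 cases and the background maximum in 9, where 63.3% and 47.5% of all measured genes did. Pdcd6, the calcium sensor gene whose product binds annexin A11, read 2010.5, the calpain subunit gene Capns1 read 1962, and the ESCRT ATPase gene Vps4b read 1889 on 1 of 3 probe sets above the background maximum. Dysf at 27.6 was between threshold and maximum, and Trim72, a repair gene of muscle, read 3.19. Beside the same 63.3% and 47.5%, 8 of 9 measured genes for EF-hand calcium sensors outside the S100 family passed both threshold and maximum. They included Calu, a sensor of the secretory pathway, at 2091, and, shared with the repair list, Pdcd6 and Capns1. The exception was Rcn1, another secretory pathway sensor, at 11.6 on its higher probe set. The calmodulin genes had no one-gene probe set.

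**Figure D3:**
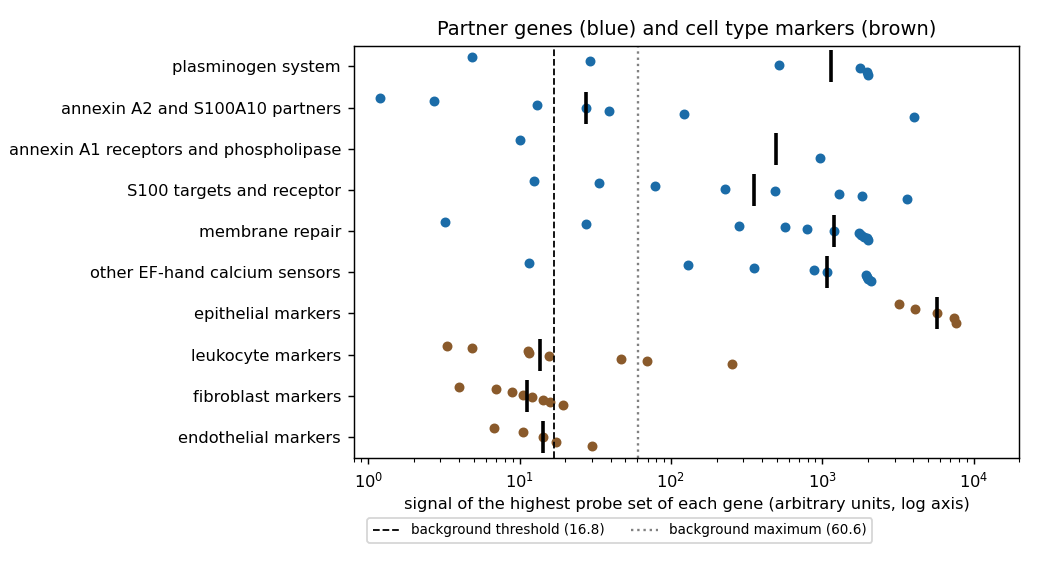
Signal of the highest probe set of each measured gene (dots, log axis, arbitrary units) in the partner lists (blue) and the cell type marker lists (brown), with the median of each list as a black bar. The membrane repair and EF-hand sensor medians, 1192 and 1067, lie far to the right of the background maximum. The median of the annexin A2 and S100A10 partners, 27.6, lies between threshold and maximum. The leukocyte, fibroblast and endothelial medians, 13.6, 11.2 and 14.3, lie under the background threshold.

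General markers of epithelial and other cell types were read last. No lung marker was among them, so they cannot show the tissue of origin. All 5 epithelial markers were above the background maximum, from Krt18 at 7600.2 and Krt8 at 7422 down to Epcam at 3219. The share over all measured genes was 47.5%. Several of the members are also expressed by other cell types, S100a4 by fibroblasts and leukocytes and Anxa1 by neutrophils and macrophages.

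Of 8 measured fibroblast markers, 1 passed the threshold, Col1a2 at 19.3, and the others lay between 3.95 for Pdgfrb and 15.9 for Pdgfra. Col1a1, Col3a1, Thy1, Dcn and Lum read at most 14.4. Of 8 measured leukocyte markers, 3 passed the threshold, with Cd14 at 255 and Cd68 at 69.8 above the background maximum and Csf1r at 47.1 between threshold and maximum. Ptprc, the pan-leukocyte gene, read at most 11.5, and Lyz2, Itgam, Adgre1 and Cd3e were also not above the threshold. Of 5 endothelial markers, Kdr at 30.3 and Cdh5 at 17.4 passed the threshold and none the background maximum, and Pecam1, Tek and Cldn5 did not pass it. Of these 21 markers of other cell types, 6 passed the threshold and 2 the background maximum, where 63.3% and 47.5% of all measured genes did. Their part in the members' signals was not tested.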

How the data were processed

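Total RNA of 1 cell line sample was hybridized to 1 Affymetrix array. Each probe set has 1 deposited signal intensity, not log-transformed. The submitters' processing notes name Affymetrix Expression Console as the software, and which algorithm, background correction or scaling was applied is not given in the sources used here. Signals ranged from 0.0591 to 8928 with a median of 22.5 over 45101 probe sets. The brightest may be saturated.

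Gene names came from the platform annotation, brought up to date by gene ID with the RefSeq table of GRCm38.p6. Apart from 64 controls, 34945 probe sets named 1 gene, 932 several and 9160 had no name here, and only those with 1 name were used. The background threshold was the 95th percentile of probe sets for olfactory receptors (44), vomeronasal receptors (36), bitter taste receptors (3) and keratin-associated proteins (43). The highest probe set gave a gene's level, and spread was computed on log2 signals. Calls were also run on simulated signals, drawn either far above the background or from the background's own mean and SD. That checked the code, and it cannot test calls for genes near the threshold. Precision is limited by the single array.

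Named genes were all members, all measured annexin and S100 genes, the 3 highest genes and those under the threshold of each partner list, and the 2 highest and those under the threshold of each marker list. Other genes of these lists were named after their values were seen. Members and lists were chosen with earlier results of these data known. A comparison of protein sequences was planned and not made here. Alternatives changed the threshold, the background set, the probe sets admitted, the way probe sets combine and the gene names. Computations used Python 3.11.15, numpy 2.4.6 and pandas 2.3.3, and figures matplotlib 3.10.9.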

Additional observations from a re-analysis of the deposited data

Results flagged for a closer look

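A pair of probe sets outside the gene counts gave signal above the background threshold of 16.8, and each listed a member that otherwise had no value. The probe set 1460351_at, which the annotation assigns to S100a11, S100a11-ps and Gm12854, read 6682, a signal that exceeded 99.9% of one-gene probe sets. The probe set 1418468_at, assigned to Anxa11, Gm2260 and Gm2274, read 542, above 88.8% of them. Neither signal can be given to 1 of the listed genes, and which of them the signal came from was not tested.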

How the results depend on the processing

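Of 43 gene and probe set counts recomputed under alternative settings, 40 were within 1.5 times the reported count and 3 were not. All 8 measured members stayed above the threshold under the alternatives run, except that 7 did with the threshold at the median plus 3 scaled median absolute deviations, where it rose to 94.6, and 7 did by their lowest probe set. By the lowest probe set, 4 members in place of 7 were above the background maximum. With the threshold at 94.6, 9 of 16 member probe sets in place of 15 and 3 other S100 genes in place of 5 were above it. Without keratin-associated genes the background maximum fell to 19.2, and all 8 members, S100a4 included, exceeded it. The median SD between probe sets of a member, 3.98 on the log2 scale with signals as deposited, became 3.64 with 16 added to each signal, 4.36 without probe sets ending in _x_at or _s_at, 3.83 over probe sets above the threshold, and 3.76 with signals under the threshold set to the threshold, an alternative chosen after seeing the data. No paired analysis was possible because there was 1 sample. The single array limits every value: signals near the threshold carry little information on amount, and no replicate error exists.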

Other observations

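Within the family, the brightest probe set of a gene was often the one that the annotation ties to a RefSeq mRNA record, a pattern noticed after the values were seen. Among genes above the threshold with several probe sets of which exactly 1 had such a record, it was the brightest in 4 of 4 members (Anxa1, Anxa2, Anxa6 and S100a10) and in 3 of 3 other family genes (Anxa4, Anxa8 and Anxa10). Over the array, it was the brightest in 51.8% of 1368 such genes. S100b, left out because it was under the threshold, went the other way. Its RefSeq probe set read 1.33 and its other probe set 6.55. With signals under the threshold set to the threshold, the RefSeq probe set exceeded the median of the others by at least 7.21 on the log2 scale for Anxa2, and by 6.95 for Anxa1, 2.06 for Anxa6 and 1.17 for S100a10, against a median of 0.50 over the array. The cause was not tested.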
